A study of Mus musculus with 16 samples.

Results

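Bone morphogenetic proteins (BMPs) are secreted ligands of the TGF-beta superfamily. They bind complexes of type I and type II receptor kinases, which phosphorylate Smad1, Smad5 and Smad9 (often with Smad4 as partner), whereas TGF-beta receptors act mainly through Smad2 and Smad3. The Id genes, which encode inhibitors of basic helix-loop-helix transcription factors, are textbook targets of the BMP branch, and in the vessel wall BMP9 and BMP10 signalling through Acvrl1 and its co-receptor Eng is known for its role in endothelium. Here 10 genes of this pathway were followed, chosen by symbol among the 31055 features of the count matrices. They are the ligands Bmp2, Bmp4 and Bmp6, the receptors Bmpr1a, Bmpr2 and Acvrl1, the co-receptor Eng, the secreted antagonist Grem1, and the targets Id1 and Id3. Each of the 10 was found once, and the question was whether BMP components and targets differ in aortic cells when Smad3 signalling is removed from smooth muscle.

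On the mouse build mm10, in the annotation of the matrices, Id1 spans chr2:152736251-152737410 on the plus strand and Id3 chr4:136143497-136145755 on the plus strand, with no overlapping gene. The ligands are at chr2:133552159-133562885 (Bmp2, plus), chr14:46383520-46390669 (Bmp4, minus) and chr13:38345107-38500302 (Bmp6, plus). The receptors are at chr14:34410734-34503341 (Bmpr1a, minus), chr1:59763400-59879014 (Bmpr2, plus), chr15:101128522-101145336 (Acvrl1, plus) and chr2:32646595-32682669 (Eng, plus), and Grem1 is at chr2:113746164-113758646 (minus). Genes on the opposite strand overlap Bmp4, Bmp6, Bmpr1a, Acvrl1 and Eng.

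The data were droplet single cell RNA-seq libraries of the mouse thoracic aorta between the root and the arch, 1 mouse per library, with cells stained by a DNA dye and sorted before capture. All mice were males of the 129S6/SvEv strain that carried Myh11-CreER, a tamoxifen-inducible Cre on the Y chromosome that is active in smooth muscle, and all were given tamoxifen from 6 weeks of age. Smad3+/+ mice served as controls, and Smad3SmKO mice had both Smad3 alleles flanked by lox sites. Some mice of either genotype carried the conditional EGFP-L10a tracer. Aortas were collected at 10 weeks after deletion (2 Smad3+/+ and 2 Smad3SmKO libraries) or at 18 weeks (5 Smad3+/+ and 7 Smad3SmKO libraries). The 4 aortas of 10 weeks were 1 batch, numbered 4, with a digestion of 60 min. Of the batches of 18 weeks, numbers 1 to 3 had a digestion of 30 min and numbers 5 and 6 one of 60 min. The tracer label was given to both Smad3+/+ and neither Smad3SmKO library of 10 weeks. At 18 weeks it was given to every library of 60 min and to none of 30 min. Smad3SmKO replicates 5 and 7 made up batch 5 with no control beside them, so in fits with a batch term they add to the estimate of spread but not to the difference between genotypes.

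Unique molecular identifiers (UMIs, 1 per captured RNA molecule) were summed per library over vascular smooth muscle cells (VSMCs, at least 5 Myh11 UMIs and more Myh11 than Dcn), over fibroblasts (at least 5 Dcn UMIs and more Dcn than Myh11) and over cells with at least 2 UMIs of Pecam1 and Cdh5 together, called the endothelial rule. A level is given as CPM, the gene's UMIs per 1000000 UMIs of that sum. The 16 matrices held 66349 cells and 508775009 UMIs, between 12539539 and 52843031 UMIs per library, and 50858 cells were kept. Of these, 8950 were VSMCs (22 to 1706 per library), 36066 fibroblasts (196 to 5505) and 3303 met the endothelial rule (31 to 469), while 4588 met none of the 3 rules. The 8 VSMC markers summed to between 40443 and 83260 CPM in VSMCs, and the 8 fibroblast markers to between 16607 and 29590 CPM in fibroblasts. The endothelial rule went partly against its label. Of its cells, 54.9% also met the fibroblast rule and 7.15% the VSMC rule, and the 8 endothelial markers reached only 333 to 1637 CPM there. Values are therefore also given for the 1254 cells that met the endothelial rule alone (4 to 170 per library), in which these markers reached 2644 to 4442 CPM. Across libraries 315 cell barcodes of 50541 occurred more than once, at most 11 in any pair of libraries.

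Smad3 itself, the deleted gene, was counted first. In VSMCs of 10 weeks it stood at 5.40 and 4.69 CPM in Smad3+/+ and at 8.08 and 5.19 CPM in the libraries labelled Smad3SmKO. At 18 weeks the 5 controls lay between 2.83 and 9.89 CPM (median 8.00) and the 7 libraries labelled Smad3SmKO between 4.04 and 17.3 CPM (median 7.93). The genotype differences were 0.45 (SE 0.38) and 0.04 (SE 0.38) on the log2 scale, so no loss of Smad3 RNA was detected at this depth. Which exons the lox sites flank is not given in the sources used here, and 3' tag counts of the whole gene do not check the labels. In 4 libraries the presence of GFP UMIs differed from the tracer label (both Smad3SmKO libraries of 10 weeks and Smad3+/+ replicates 4 and 5 of 18 weeks). Every genotype below is therefore that of the label.

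Between VSMCs and fibroblasts 6 of the 10 members differed, a share no higher than that over all genes. On the log2 scale with all genes in 1 edgeR quasi-likelihood fit (library as block, 13635 genes), 32.5% of all genes were called higher in VSMCs than in fibroblasts and 40.7% lower, at an adjusted p below 0.05. Of the 10 members, Bmpr1a and Id1 were higher in VSMCs, Bmp4, Bmp6, Acvrl1 and Eng were lower, and Bmp2, Bmpr2, Grem1 and Id3 did not pass. Between the endothelial rule and fibroblasts 17.8% of all genes were called higher and 22.9% lower. There 5 members were higher (Bmp6, Bmpr2, Acvrl1, Eng and Id1) and 2 lower (Bmp2 and Bmpr1a). Between the endothelial rule and VSMCs, with 36.3% of all genes called higher and 31.4% lower, 5 members were higher (Bmp4, Bmp6, Bmpr2, Acvrl1 and Eng) and 1, Bmpr1a, was lower.

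Of the 10 members, the ligands Bmp4 and Bmp6 had the largest differences between VSMCs and fibroblasts, and the ligand Bmp2 did not differ beyond its error. Bmp2, a ligand of Bmpr1a with roles in bone and vascular calcification, was at 19.0 ± 13.0 CPM in VSMCs (SD, n = 16), 15.5 ± 3.72 in fibroblasts and 12.7 ± 5.80 under the endothelial rule. The VSMC and fibroblast values overlapped, and VSMCs were higher in 9 of the 16 libraries and lower in 7. In cells that met the endothelial rule alone Bmp2 was at 4.48 ± 4.95 CPM, and the difference from fibroblasts went from -0.53 (SE 0.20) to -2.33 (SE 0.39; adjusted p = 2.97e-06, edgeR).

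Bmp4, a close relative of Bmp2, was at 9.26 ± 5.03 CPM in VSMCs (lowest 5.08, highest 24.9), against 82.5 ± 26.3 CPM in fibroblasts (28.8 to 129). The ranges of the 16 libraries did not touch, and the difference was -3.22 on the log2 scale (SE 0.16; adjusted p = 1.53e-19), 9.30-fold lower in VSMCs. Under the endothelial rule Bmp4 averaged 109 ± 63.3 CPM, higher than fibroblasts in 11 of 16 libraries, and this difference did not pass (0.15, SE 0.13; adjusted p = 0.360).

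Bmp6, a ligand also known for control of hepcidin in the liver, had its highest level in cells that met the endothelial rule alone, at 61.7 ± 44.8 CPM. It was at 38.0 ± 27.2 CPM under the whole endothelial rule and at 8.68 ± 4.24 CPM in fibroblasts. VSMCs held 20 Bmp6 UMIs in all 16 libraries together, and 8 of the libraries held none, with the highest at 1.55 CPM. Fitted differences were 25.7-fold less Bmp6 in VSMCs than in fibroblasts (log2 difference -4.69, SE 0.39) and 3.55-fold more under the endothelial rule than in fibroblasts (1.83, SE 0.19). With every cell thinned to 2000 UMIs, the median share of cells with a Bmp6 UMI was 10.0% for the endothelial rule alone, 1.39% for fibroblasts and 0.00755% for VSMCs. Without thinning these shares were 21.0%, 6.17% and 0.0587%, at median depths per library of 3363.5 to 16899, 4318.5 to 26326 and 5812 to 21902 UMIs per cell.

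Among the receptors, Bmpr1a (the type I receptor ALK3) was the one with its highest level in VSMCs, at 95.3 ± 31.1 CPM (48.9 to 148). Fibroblasts had 57.8 ± 14.03 CPM (35.2 to 87.8), lower than the VSMCs of the same mouse in 15 of 16 libraries. The difference was 0.73 on the log2 scale (SE 0.07; adjusted p = 5.96e-11, edgeR). Cells that met the endothelial rule alone had 14.03 ± 12.5 CPM, below every VSMC value, and differed from VSMCs by -3.17 (SE 0.18), or 8.99-fold less. Under the whole rule, which shares cells with fibroblasts, the level was 53.2 ± 18.0 CPM.

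The type II receptor Bmpr2 was the most even of the receptors. It was at 70.1 ± 17.2 CPM in VSMCs, 73.0 ± 17.9 in fibroblasts, 90.7 ± 20.3 under the endothelial rule and 135 ± 36.2 for the endothelial rule alone. VSMCs and fibroblasts were not distinguishable (-0.04, SE 0.07), whereas the endothelial rule was higher than VSMCs in 16 of 16 libraries (0.24, SE 0.07; adjusted p = 0.00291).

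The type I receptor Acvrl1 (ALK1) and the co-receptor Eng (endoglin) shared the order endothelial rule, fibroblasts, VSMCs. Acvrl1 was at 15.8 ± 5.51 CPM in VSMCs (5.65 to 27.2), 55.0 ± 17.1 in fibroblasts (29.6 to 80.5) and 77.2 ± 26.2 under the endothelial rule, and it reached 148 ± 50.2 for the endothelial rule alone. Eng was at 33.3 ± 11.7, 102 ± 27.2 and 205 ± 71.1 CPM in the same order, and at 492 ± 211 CPM for the endothelial rule alone. For Acvrl1 the VSMC and fibroblast ranges did not touch, and the differences from fibroblasts were -1.65 (SE 0.11) in VSMCs and 0.37 (SE 0.10) under the endothelial rule. For Eng they were -1.56 (SE 0.11) and 0.86 (SE 0.11), and between cells of 1 type alone the endothelial difference from fibroblasts grew to 1.89 (SE 0.12). Both genes lie on the opposite strand to a neighbour that the annotation overlaps with them (Gm16031 for Acvrl1, Fpgs for Eng).

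Grem1, which encodes the BMP antagonist gremlin, was near the limit of detection. It was at 1.45 ± 1.57 CPM in VSMCs (96 UMIs, above 0 in 13 of 16 libraries), and its median in fibroblasts was 0.120 CPM with 12 of 16 libraries above 0. The mean of 2.56 CPM in fibroblasts rests on 1 library, Smad3SmKO replicate 7 of 18 weeks, which held 172 of the 274 UMIs. The endothelial rule alone had 0 UMIs in 1254 cells, which allows up to 0.338 CPM, or a share of cells with a Grem1 UMI of up to 0.239% (counting error only, and no limit on cells that express the gene). The difference between VSMCs and fibroblasts did not pass (1.14, SE 0.63; adjusted p = 0.101, edgeR), and without replicate 7 it was 1.99 and passed, as it did without Smad3SmKO replicate 1 of 10 weeks (1.69).

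Of the targets, Id1 was at 127.5 ± 34.6 CPM in fibroblasts (80.6 to 189), at 229 ± 108 CPM in VSMCs (121 to 418) and at 251 ± 55.7 CPM under the endothelial rule (162 to 355). It was higher than fibroblasts in 14 of 16 libraries in VSMCs (0.78, SE 0.14; adjusted p = 8.02e-06) and in 15 of 16 under the endothelial rule (0.87, SE 0.14; adjusted p = 5.14e-06). In cells that met the endothelial rule alone Id1 was at 531 ± 128.3 CPM, above every fibroblast library and 1.04 higher than VSMCs on the log2 scale (SE 0.16; adjusted p = 3.53e-07), a difference of 0.09 (SE 0.14) that did not pass under the whole rule. Id3 was nearly level, at 1492 ± 326 CPM in VSMCs, 1579.5 ± 320.4 in fibroblasts (SD, n = 16) and 1492 ± 289 under the endothelial rule. VSMCs were higher than fibroblasts in 8 libraries and lower in 8, and the difference did not pass (-0.04, SE 0.09), whereas Id1 passed. Between cells of 1 type alone, Id3 was lower under the endothelial rule than in fibroblasts (-0.30, SE 0.11, adjusted p = 0.0203, edgeR). The levels hardly differed. Cells of the rule alone averaged 1548 CPM, against 1579.5 CPM in all fibroblasts, and were higher in 7 of 16 libraries and lower in 9. Under the whole rule the Id3 difference from fibroblasts did not pass.

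**Figure D1:**
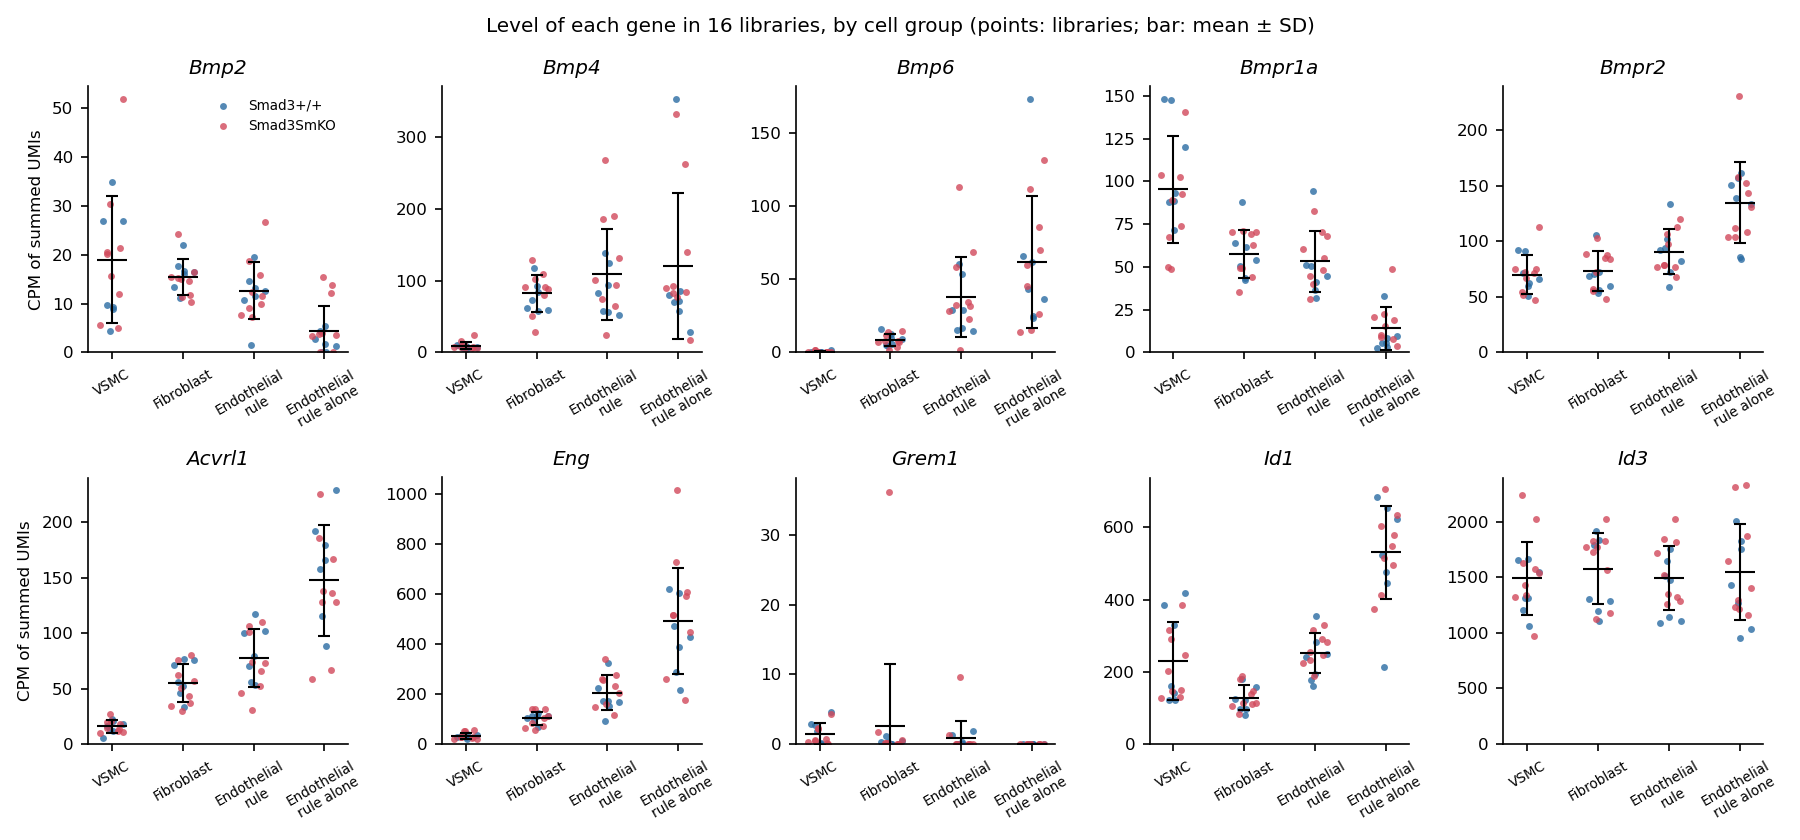
Level of each of the 10 genes (y axis, CPM of summed UMIs) in VSMCs, fibroblasts, cells meeting the endothelial rule and cells meeting that rule alone (x axis). Each point is 1 of 16 libraries, coloured by genotype label, and bars give the mean ± SD. Bmp4, Bmp6, Acvrl1 and Eng are lowest in VSMCs, Bmpr1a is highest there, the means of Id3 lie between 1492 and 1579.5 CPM, and a single library lifts Grem1 in fibroblasts to 36.2 CPM.

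The promoters of Eng and Bmp4 are shown because both genes were far lower in VSMCs than in fibroblasts or under the endothelial rule, and because for these 2 members the RefSeq start on GRCm38.p6 equals the start in the annotation of the matrices. The 250 bases before the start are printed 5′ to 3′ on the gene's strand. In capitals are the short Smad-binding letters GTCT (or AGAC on the other strand) and the ETS letters CCGGAA (or TTCCGG). The shorter ETS core GGAA (or TTCC) was neither counted nor marked by itself. The Eng promoter is at chr2:32646345-32646594 on the plus strand and the Bmp4 promoter at chr14:46390670-46390919 on the minus strand.
Eng: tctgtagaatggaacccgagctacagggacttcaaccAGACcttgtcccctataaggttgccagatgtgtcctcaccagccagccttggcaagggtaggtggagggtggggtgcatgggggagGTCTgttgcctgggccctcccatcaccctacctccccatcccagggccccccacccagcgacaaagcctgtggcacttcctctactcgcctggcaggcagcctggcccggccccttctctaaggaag
Bmp4: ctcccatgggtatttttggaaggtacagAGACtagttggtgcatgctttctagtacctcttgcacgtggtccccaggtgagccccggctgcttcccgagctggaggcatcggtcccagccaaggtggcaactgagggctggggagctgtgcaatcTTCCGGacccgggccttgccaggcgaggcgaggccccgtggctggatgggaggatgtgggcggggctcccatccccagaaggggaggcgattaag
Eng held 2 matches of GTCT or AGAC and 0 of CCGGAA or TTCCGG, and Bmp4 held 1 of each. Among 32851 RefSeq promoters of this length 82.9% held GTCT or AGAC and 12.03% held CCGGAA or TTCCGG, so the first is found in nearly any window. Promoters of 7 of the 10 members were matched in the table used, and those of Bmp2, Acvrl1 and Id1 were not analysed here.

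The comparison of genotypes in VSMCs asked whether BMP genes shift when Smad3 is deleted. At 10 weeks 0.0% of 11852 genes passed an adjusted p of 0.05 (edgeR, batch as a term), with 219 genes at an unadjusted p under 0.05. At 18 weeks 0.0422% passed (5 genes, among them GFP of the tracer), with 582 at an unadjusted p under 0.05. DESeq2 called 1 and 8 genes. Of the 9 members tested in VSMCs, 0 passed at either time, by edgeR or by DESeq2. At an unadjusted p under 0.05 there were 0 at 10 weeks and 1 at 18 weeks, Bmpr1a. Bmp6 was too low in VSMCs to be tested. The median difference of the members was -0.17 at 10 weeks and 0.06 at 18 weeks, beside a median of -0.01 over all genes at both times.

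The targets Id1 and Id3 read out the question most directly. Id1 in VSMCs of 10 weeks was at 162 and 121 CPM in Smad3+/+ and at 127 and 129.7 CPM in the libraries labelled Smad3SmKO. The 2 groups overlapped, and the difference was -0.10 on the log2 scale (SE 0.26; adjusted p = 1). At 18 weeks the 5 controls, replicates 1 to 5, were at 329, 418, 384, 141 and 121 CPM. The 7 libraries labelled Smad3SmKO lay between 148 and 384 CPM with a median of 247. The lowest and the highest value of all 12 were both controls, and the difference was 0.01 (SE 0.17; adjusted p = 1.00).

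Within batches the Id1 values had no single direction. Smad3SmKO was below Smad3+/+ in batch 1 (304 against 329 CPM), batch 2 (247 against 384) and batch 3 (384 against 418), and above it in batch 6 (202 against 130.9). In batch 6 the Smad3SmKO side is 1 library, replicate 6, and without it the Id1 difference became -0.34 (SE 0.15; unadjusted p = 0.0365, adjusted p = 0.715, edgeR). Without the 4 libraries whose GFP and tracer label differ, which include both controls of batch 6, it was -0.35 (SE 0.17). Both fits leave the genotype difference to batches 1 to 3, so they are not separate checks. The summed VSMC markers in these sums moved the same way as Id1 in each batch, lower in Smad3SmKO in batches 1, 2 and 3 and higher in batch 6 (83260 against 70778 CPM), and their part in the result was not tested.

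Id3 of 10 weeks was at 1318 and 1064 CPM in Smad3+/+ and at 1325 and 971 CPM in the libraries labelled Smad3SmKO, again with overlap (-0.03, SE 0.27). At 18 weeks the controls ranged from 1209.6 to 1668 CPM with a median of 1548, and the libraries labelled Smad3SmKO from 1345 to 2241 CPM with a median of 1579. Replicates 6 and 4 of Smad3SmKO, at 2241 and 2027 CPM, stood above all controls, and the other 5 lay inside the range of the controls. The difference was 0.26 (SE 0.18; adjusted p = 1.00), with 2 batches of 4 higher and 2 lower, and it was -0.04 (SE 0.16) without replicate 6. Whether the genotype difference changed with time was tested as 18 weeks minus 10 weeks, where 0.00844% of all genes passed (1 gene, GFP). For Id1 this change was 0.11 (SE 0.31) and for Id3 0.28 (SE 0.33), and 0 of 9 members passed.

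**Figure D2:**
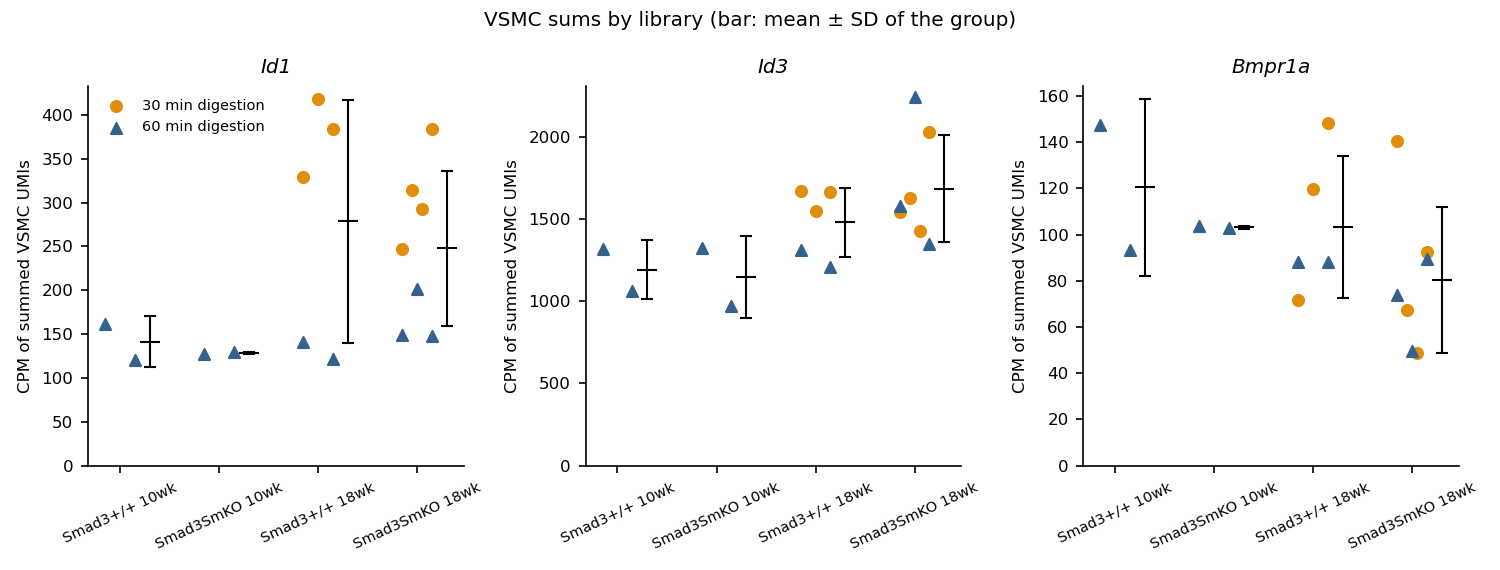
Level in VSMC sums (y axis, CPM) of Id1, Id3 and Bmpr1a in the 4 groups (x axis), with each point a library, circles for 30 min and triangles for 60 min of digestion, and bars for the group mean ± SD. The genotypes overlap for all 3 genes, and the 18 week Id1 values split by digestion, 247 to 418 CPM after 30 min and 121 to 202 CPM after 60 min.

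The receptor Bmpr1a had the smallest unadjusted p of the members in VSMCs. At 10 weeks it was at 148 and 93.2 CPM in Smad3+/+ and at 104 and 103 CPM in the libraries labelled Smad3SmKO (-0.18, SE 0.19). At 18 weeks the controls were at 71.7, 119.8, 148, 88.2 and 88.0 CPM, and the Smad3SmKO libraries lay between 48.9 and 141 CPM with a median of 73.8. The groups overlapped, and Smad3SmKO replicate 1, at 141 CPM, was above 4 of the 5 controls. The difference was -0.44 on the log2 scale (SE 0.15; unadjusted p = 0.00905, adjusted p = 0.947, edgeR), 1.36-fold lower.

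Bmpr1a was lower in Smad3SmKO in each of the 4 batches that held both genotypes, at 58.2 against 71.7 CPM in batch 1, 141 against 148 in batch 2, 92.5 against 119.8 in batch 3 and 49.7 against 88.1 in batch 6. Some of these directions rest on few counts. Batch 2 had 65 UMIs in Smad3SmKO and 105 in the control, and the Smad3SmKO library of batch 3 had 26 UMIs in 22 VSMCs. Without Smad3SmKO replicate 6 the difference was -0.31 (SE 0.17), and without the 4 libraries of differing tracer label it was -0.32. Both fits leave the genotype difference to batches 1 to 3, so they are not separate checks. In VSMC sums the 6 pericyte markers were also higher in Smad3SmKO in 4 of 4 batches (304 to 608 CPM over controls, 337 to 1530 CPM over Smad3SmKO at 18 weeks), and the part of this in the Bmpr1a values was not tested.

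The other receptors and the co-receptor gave differences smaller than 2 SE at both times. For Bmpr2 the differences were -0.03 (SE 0.20) at 10 weeks and 0.05 (SE 0.16) at 18 weeks, with 1 high library at 113 CPM, Smad3SmKO replicate 1, among 7 that otherwise lay between 46.9 and 74.7 CPM. For Acvrl1 they were -0.17 (SE 0.28) and 0.06 (SE 0.24), on between 4 and 251 UMIs per library at 18 weeks. For Eng they were -0.35 (SE 0.29) and 0.06 (SE 0.25).

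Of the ligands in VSMCs, Bmp2 was at 4.41 and 8.99 CPM in the controls of 10 weeks and at 5.69 and 5.02 CPM in Smad3SmKO. At 18 weeks it ranged from 9.28 to 34.9 CPM in controls (median 26.8) and from 11.96 to 51.9 CPM in Smad3SmKO (median 20.5), with a difference of 0.40 (SE 0.31) that was -0.13 (SE 0.35) without replicate 6. Bmp4 ranged from 7.14 to 9.89 CPM in controls (median 8.49) and from 5.89 to 24.9 CPM in Smad3SmKO (median 8.07). Its 2 highest values, 24.9 and 16.6 CPM, rested on 7 and 37 UMIs, and the difference was 0.46 (SE 0.31), or 0.79 (SE 0.41) without replicate 6. The antagonist Grem1 was between 0 and 4.66 CPM in both genotypes at 18 weeks, with differences of -1.26 (SE 1.40) and -0.51 (SE 1.33) at the 2 times.

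**Figure D3:**
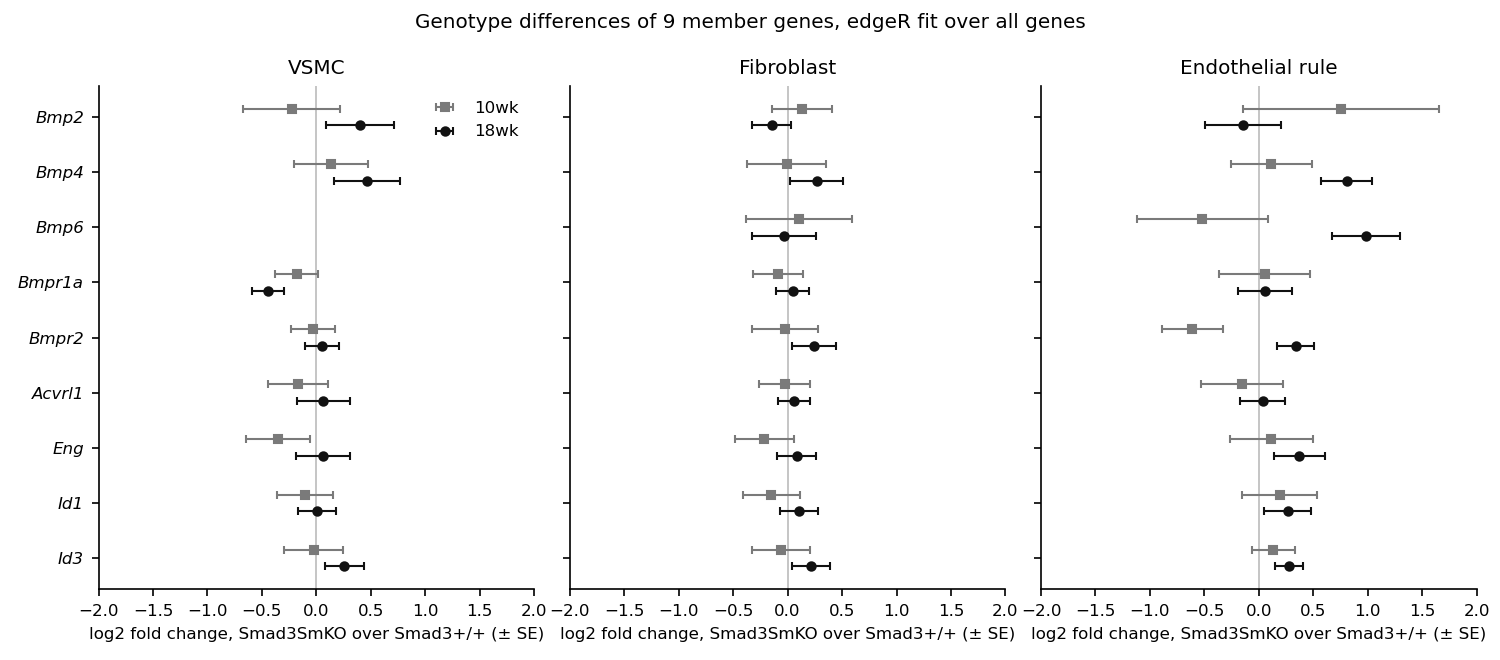
Genotype difference of 9 members (log2 fold change, Smad3SmKO over Smad3+/+, x axis) in VSMCs, fibroblasts and the endothelial rule, from the edgeR fit over all genes. Grey squares are 10 weeks, black circles 18 weeks and bars ± 1 SE. Grem1 is not drawn, and Bmp6 was not tested in VSMCs. Most intervals cross 0, and the points farthest from it relative to their bars are Bmpr1a in VSMCs (-0.44) and Bmp4 (0.81) and Bmp6 (0.98) under the endothelial rule, all at 18 weeks.

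Myh11-CreER is not active in fibroblasts, and among their sums 0.0% of 14626 genes passed at 10 weeks and 0.0% at 18 weeks (edgeR, 119 and 363 genes at an unadjusted p under 0.05, with 3 and 3 called by DESeq2), and 0 of the 10 members passed or had an unadjusted p under 0.05. Id1 in controls of 18 weeks ranged from 80.6 to 159 CPM (median 122) and in Smad3SmKO from 83.0 to 189 CPM (median 113), a difference of 0.10 (SE 0.17). Id3 ranged from 1106 to 1789.7 CPM (median 1289.6) in controls and from 1130.1 to 2025 CPM (median 1733) in Smad3SmKO, a difference of 0.22 (SE 0.17). Bmpr1a ranged from 42.4 to 63.8 CPM and from 35.2 to 71.1 CPM, a difference of 0.05 (SE 0.15). All 3 genes overlapped between genotypes. Smad3SmKO replicate 7 stood apart here with 196 fibroblasts, VSMC markers at 12936 CPM, and the lowest values of Bmp4 (28.8 CPM), Bmp6 (1.89 CPM), Acvrl1 (29.6 CPM) and Eng (54.7 CPM) in fibroblasts. It lies in batch 5, and without it the differences of Id1 (0.10), Id3 (0.22) and Bmpr1a (0.05) in fibroblasts were the same to 2 decimals.

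Whether VSMCs responded differently from fibroblasts of the same mice was tested as a difference of the 2 genotype effects. At 10 weeks 0.0% of 14475 genes passed and at 18 weeks 0.0% passed (edgeR, 228 and 633 at an unadjusted p under 0.05), and 0 of the 10 members passed at either time. Bmpr1a had a value of -0.49 at 18 weeks (SE 0.14; unadjusted p = 0.00410, adjusted p = 1, edgeR), made of -0.44 in VSMCs and 0.05 in fibroblasts. For Id1 it was -0.15 (SE 0.22) and for Id3 0.01 (SE 0.18). Without Smad3SmKO replicate 6 the value of Id1 was -0.53 (SE 0.19; adjusted p = 0.911).

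Under the endothelial rule 0.0% of 11683 genes passed at 10 weeks and 0.0% at 18 weeks (edgeR, 427 and 361 at an unadjusted p under 0.05, with 7 and 0 called by DESeq2), and 0 of 9 members passed. Bmpr2 at 10 weeks (-0.61, SE 0.28) and the ligands Bmp4 and Bmp6 at 18 weeks had an unadjusted p under 0.05. Bmp4 in controls of 18 weeks was at 94.8, 51.7, 82.8, 56.4 and 57.7 CPM, and in Smad3SmKO it lay between 24.8 and 269 CPM with a median of 94.1. Bmp6 was at 53.2, 14.4, 29.1, 16.4 and 15.4 CPM in controls and between 1.38 and 113 CPM in Smad3SmKO, with a median of 32.6. The ranges overlapped for both ligands, and replicate 7 was the lowest library for each (18 and 1 UMIs in 31 cells).

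Within batches both ligands were higher in Smad3SmKO in 4 of 4. Bmp4 averaged 228 against 94.8 CPM in batch 1, 132.2 against 82.8 in batch 2, 94.1 against 51.7 in batch 3 and 75.0 against 57.05 in batch 6. Bmp6 averaged 85.6 against 53.2, 68.6 against 29.1, 32.0 against 14.4 and 32.6 against 15.9 CPM. The differences were 0.81 (SE 0.24; unadjusted p = 0.00459) for Bmp4 and 0.98 (SE 0.32; unadjusted p = 0.00808) for Bmp6, each with an adjusted p of 1.00 in edgeR. With no filter on low counts the values were 0.80 and 0.97 and both passed (adjusted p = 0.0076 and 0.000351, edgeR). Over all genes the number called under the endothelial rule at 18 weeks ranged from 0 to 120 over the alternatives.

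The make-up of the endothelial sums differed in the same batches. The 8 endothelial markers summed to more in Smad3SmKO in 4 of 4 batches (1293 against 810 CPM in batch 1, 1272 against 1046 in batch 2, 1362.5 against 889 in batch 3 and 1334 against 1005 in batch 6), and the 8 fibroblast markers to less in 3 of 4. In cells that met the endothelial rule alone the differences were 0.90 (SE 0.58; unadjusted p = 0.143) for Bmp4 and 0.72 (SE 0.40; unadjusted p = 0.0909) for Bmp6, higher in 3 and in 4 of 4 batches. Replicate 7 of Smad3SmKO has no control in its batch. For the whole endothelial rule, leaving it out gave 0.81 and 0.99, and leaving out replicate 6 gave 0.94 and 0.93. The part of the changed make-up in these values was not tested. The receptors under the endothelial rule differed by 0.06 (Bmpr1a, SE 0.25), 0.34 (Bmpr2, SE 0.17), 0.03 (Acvrl1, SE 0.20) and 0.37 (Eng, SE 0.23) at 18 weeks, and the targets by 0.26 (Id1, SE 0.22) and 0.28 (Id3, SE 0.13). The rule alone gave 0.90 (Bmpr1a, SE 0.53), 0.21 (Bmpr2, SE 0.21), -0.09 (Acvrl1, SE 0.19) and 0.23 (Eng, SE 0.22). For the targets it gave 0.000245 (Id1, SE 0.22) and 0.28 (Id3, SE 0.17). Id3 was higher in 4 of 4 batches under the whole rule and in 3 under the rule alone. Id1 was higher in 3 batches under the whole rule and in 1 under the rule alone.

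**Figure D4:**
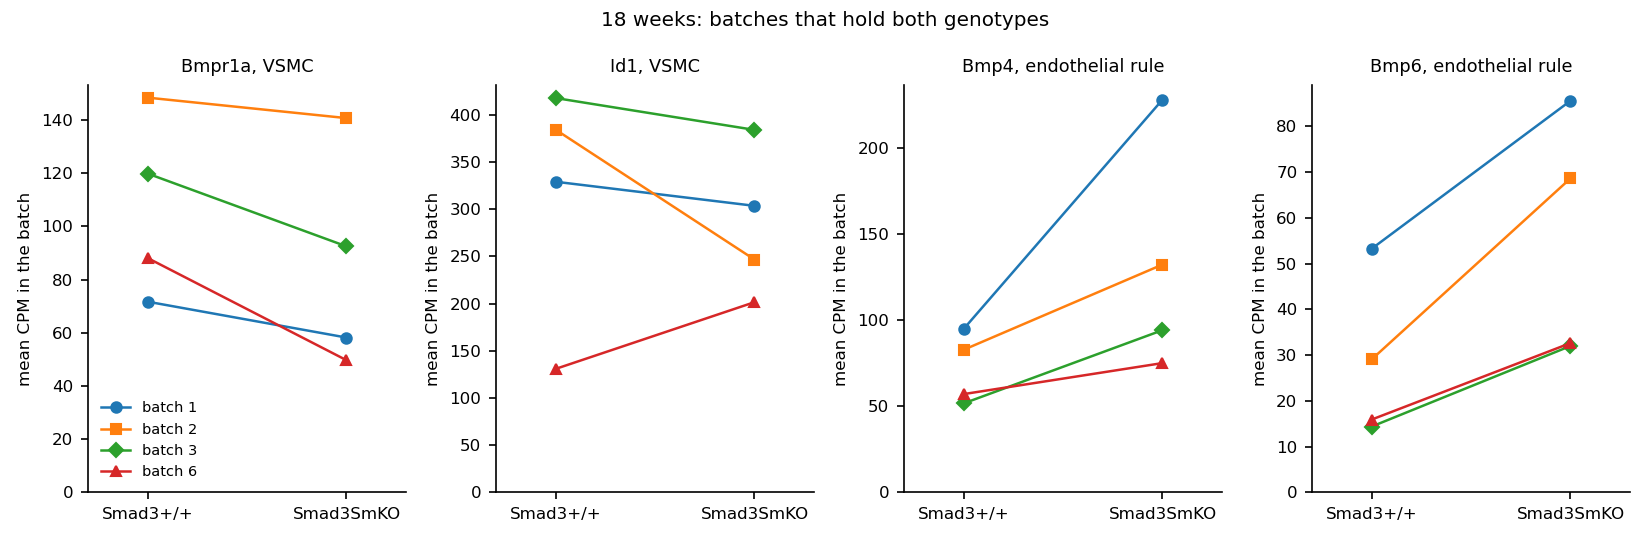
Mean level (y axis, CPM) in Smad3+/+ and Smad3SmKO libraries (x axis) of the 4 batches of 18 weeks that hold both genotypes, for Bmpr1a and Id1 in VSMCs and for Bmp4 and Bmp6 under the endothelial rule; each line is 1 batch of 2 or 3 libraries. Bmpr1a is lower in all 4 batches, Id1 in 3 of 4, and Bmp4 and Bmp6 are higher in all 4.

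The batches of 18 weeks differ also in digestion time, which was looked at for Id1 and the other members in VSMCs. After 30 min the 7 libraries had 247 to 418 CPM of Id1 (mean 338) and after 60 min the 5 libraries had 121 to 202 CPM (mean 152), with no overlap and a 2.23-fold difference of the means. The 4 libraries of 10 weeks, all digested for 60 min, had 121 to 162 CPM. Of 9404 genes with at least 5 CPM on average, 2.78% had ranges that did not overlap between the digestion times, and 0.17% between the genotypes. Id1 was the 1 member with such ranges for digestion, and 0 members had them for genotype. Bmp2 nearly separated, with 20.2 to 51.9 CPM after 30 min and 9.28 to 20.5 CPM after 60 min, while Id3 overlapped widely (1428 to 2027 and 1209.6 to 2241 CPM). In fibroblasts, where 6.92% of 9860 genes had ranges apart by digestion and 0.0406% by genotype, Id1 was at 113 to 189 CPM after 30 min and 80.6 to 113 CPM after 60 min, meeting at 113 CPM, and 0 members had ranges apart by either. The sum of 15 immediate early genes, a sign of stress during dissociation, was 2947 to 12735 CPM after 30 min and 4358 to 8636 CPM after 60 min in VSMCs, and its part in the Id1 values was not tested. Digestion time, batch and the tracer label cannot be told apart here.

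The rest of the pathway was described from lists of 10 other ligands, 7 other receptors and co-receptors, 16 other antagonists, 6 Smads and 8 other targets (Smad6 and Smad7 are on the last 2 lists). In each of the 9 genotype comparisons 0 genes of these lists passed an adjusted p of 0.05. In VSMCs of 18 weeks the median difference was -0.21 for the Smads, -0.19 for the other targets and 0.28 for the other antagonists, beside -0.01 over all genes. Of the 8 other targets 4 were above 0 and 4 below. The gene of these lists with the smallest unadjusted p there was Fstl3, which encodes a follistatin-like binder of activins, at -0.55 (SE 0.19; adjusted p = 0.947, edgeR); it was picked out after its values were seen. At 10 weeks the median in VSMCs was 0.12 for the Smads and 0.24 for the other targets, with 6 of 8 targets above 0. At 18 weeks 6 of 6 Smads were above 0 under the endothelial rule (median 0.27) and in fibroblasts (median 0.17). The other targets had a median of 0.14 under that rule and -0.16 in fibroblasts. Of these 2 lists, Smad6 (0.79, SE 0.27), Atoh8 (0.71, SE 0.25) and Smad1 (0.40, SE 0.15) had an unadjusted p under 0.05 under the endothelial rule (edgeR). These 2 cell groups are not separate, since 54.9% of the cells of the endothelial rule also met the fibroblast rule. In both sums the endothelial markers were higher in Smad3SmKO in 4 of 4 batches, and the part of this in these values was not tested.

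Between cell types the counts of these lists stand beside the high shares over all genes, 32.5% higher and 40.7% lower in VSMCs than in fibroblasts. There 1 of 4 tested ligands was higher in VSMCs and 3 lower, 3 of 7 receptors were higher and 2 lower, 4 of 14 antagonists higher and 8 lower, 3 of 6 Smads higher and 2 lower, and 4 of 8 targets higher and 3 lower. The type I receptor Bmpr1b was higher in VSMCs (2.31, SE 0.15), as was the co-receptor Neo1 (1.13, SE 0.09), and the type I receptor Acvr1 was lower (-0.96, SE 0.07). Among the ligands Bmp5 (-4.51, SE 0.37), Gdf10 (-4.32, SE 0.24) and Gdf6 (-3.53, SE 0.41) were lower in VSMCs. The antagonists Bmper (-5.61, SE 0.27) and Kcp (-5.02, SE 0.36) were lower and Sost, which encodes sclerostin, was higher (5.25, SE 0.28). Of the Smads, the receptor-activated Smad9 was higher (1.97, SE 0.17), Smad5 lower (-0.72, SE 0.06) and the inhibitory Smad6 higher (0.55, SE 0.11). Of the targets, the homeobox gene Msx2 was higher in VSMCs (2.34, SE 0.34), its relative Msx1 lower (-1.68, SE 0.13) and Atoh8 higher (1.47, SE 0.12).

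Under the endothelial rule against fibroblasts, with 17.8% of all genes higher and 22.9% lower, 0 ligands were higher and 2 lower, 2 receptors higher and 3 lower, 3 antagonists higher and 7 lower, 1 Smad higher and 0 lower, and 2 targets higher and 3 lower. The largest differences of each list were in the ligands Gdf10 (-1.88) and Bmp5 (-1.23), the receptors Bmpr1b (0.61), Rgma (-0.47) and Acvr2b (0.36), the antagonists Sost (2.38), Chrdl1 (-1.72) and Crim1 (1.64), Smad1 (0.61), and the targets Hey1 (0.82), Id4 (-0.73) and Msx1 (-0.48). Against VSMCs, with 36.3% of all genes higher and 31.4% lower, 3 ligands were higher and 1 lower, 3 receptors higher and 3 lower, 8 antagonists higher and 4 lower, 2 Smads higher and 2 lower, and 2 targets higher and 5 lower. There the ligand Gdf6 (3.48) and the antagonists Bmper (4.11) and Kcp (3.99) were higher, and the ligand Bmp3 (-3.16) and Smad9 (-2.01) lower. The ligand Bmp5 (3.28) and Smad5 (0.77) and Smad1 (0.42) were also higher. Of the receptors Bmpr1b (-1.70) and Neo1 (-1.37) were lower and Acvr1 (0.68) higher, and of the targets Hey1 (1.91) and Msx1 (1.21) were higher and Msx2 (-1.86) lower. All these values are for the whole endothelial rule, of whose cells 54.9% also met the fibroblast rule and 7.15% the VSMC rule. The part of these shared cells in the values was not tested.

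The genes whose VSMC levels followed those of the 2 targets most closely over the 16 libraries, after centring each batch, were Wtip (Pearson r = 0.92), Mettl16 (0.91), Tcp1 (0.90), Zfand5 (0.89) and Clpb (0.87) for Id1, and Grina (0.86), Dpep1 (0.85), Retreg2 (0.84), Cxxc1 (0.82) and Sgms1 (0.81) for Id3. These are the 5 highest of 9404 genes each, given as a description, since all genes of a library share its depth and its cells. Id1 and Id3 correlated with each other at 0.67, at rank 135 for Id1 and rank 59 for Id3.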

How the data were processed

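The authors deposited filtered gene-by-cell matrices of UMI counts, 1 for each of 16 libraries, made with Cell Ranger on mm10 (version 6 per the labels, 4.0.0 per the file headers); Seurat 4 is also named. Barcodes were kept here if they had between 600 and 6000 detected genes, a total between 2000 and 50000 UMIs, and a mitochondrial share below 25%; doublets were not called. Raw counts were summed per library and cell type (at least 10 cells) and tested with edgeR 4.0.16 in R 4.3.3 (quasi-likelihood, TMM, filterByExpr, Benjamini-Hochberg over all genes tested), with batch and 1 genotype effect for each time as terms, or with library as block between cell types. DESeq2 1.42.0 was an alternative. A call is an adjusted p under 0.05, and the SE is the log2 fold change divided by the root of F. The fits were tested on simulated data. Summaries used Python 3.11.15, numpy 2.4.6, pandas 2.3.3 and scipy 1.17.1. All 10 members are named, with the 3 called genes of largest fold per list between cell types, except 1 that is not reported here. Members and lists were chosen with earlier results of these data known. Each library is 1 mouse. An SE covers the spread between libraries, and a limit from a count of 0 covers counting error only. In sums of cells, fewer cells with a transcript and less RNA per cell cannot be told apart.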

Additional observations from a re-analysis of the deposited data

Results flagged for a closer look

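Of 60 groups of 5 or 7 libraries tested for a single distant value, 4 had one, where chance flags about 1 in 20. Grem1 in fibroblasts of Smad3SmKO replicate 7 of 18 weeks was at 36.2 CPM (172 UMIs in 31 of 196 cells), against at most 0.518 CPM in the other 6 libraries of its group. Grem1 under the endothelial rule of the same library was at 9.64 CPM (7 UMIs in 3 of 31 cells), with 0 in the others. This library also had the highest summed VSMC markers in its fibroblasts, 12936 CPM, and their part in the Grem1 value was not tested. Bmpr2 in VSMCs of Smad3SmKO replicate 1 of 18 weeks was at 113 CPM, with the others between 46.9 and 74.7 CPM. Bmp6 in VSMCs of Smad3+/+ replicate 2 of 18 weeks was at 1.55 CPM, resting on 5 UMIs, with the others at no more than 0.262 CPM.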

How the results depend on the processing

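Under 30 alternatives the count of members called kept within 1.5 times of the reported one in 312 cases. The 2 exceptions were the endothelial rule at 18 weeks with no filter on low counts, where 2 members passed (Bmp4 and Bmp6), and the endothelial rule minus fibroblasts with no library block, where 4 passed. Over all genes the counts called moved more, from 0 to 134 in VSMCs at 18 weeks (5 reported), 0 to 51 at 10 weeks (0), 0 to 70 for 18 minus 10 weeks (1), 0 to 120 and 0 to 38 under the endothelial rule at 18 and 10 weeks (0), 0 to 78 and 0 to 6 for VSMCs minus fibroblasts at 18 and 10 weeks (0), and 2784 to 8769 for the endothelial rule minus fibroblasts (5551). Under some alternative 30 single values passed that had not and 10 no longer passed, all but Bmp4 and Bmp6 under the endothelial rule at 18 weeks being level differences between cell types. Directions of uncalled differences turned often, in 78 single values against 1378 that kept direction and side, and the cause was not tested. Log2 differences in VSMCs at 18 weeks with another sign were as follows. With libraries of 30 min alone they were -0.11 for Bmp2, -0.071 for Acvrl1, -0.32 for Id1 and -0.016 for Id3, and with 60 min alone -0.14 for Bmpr2 and -0.23 for Eng. Without the libraries of differing tracer label they were -0.13 for Bmp2, -0.090 for Acvrl1, 0.0026 for Grem1, -0.35 for Id1 and -0.048 for Id3. Stricter gates gave -0.11 for Bmp4, -0.000952 for Eng and -0.067 for Id1, and leaving out cells of 2 types gave -0.016 for Eng and -0.021 for Id1. With no batch term Bmpr2 was at -0.046 and Id1 at -0.17 (-0.070 for Id1 as 18 minus 10 weeks), and with digestion in place of batch at -0.050 and -0.023. Id1 was at -0.000975 with no cell limits and at -0.0039 with no low count filter. At 10 weeks stricter gates gave -0.025 for Bmp4 and 0.039 for Id3, and no cell limits 0.0016 for Bmpr2. Between cell types Bmp2 in VSMCs minus fibroblasts was 0.014 by DESeq2 and 0.11 with no library block, and Grem1 under the endothelial rule minus fibroblasts was 0.28 by DESeq2.

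With each library left out in turn, VSMC differences at 18 weeks ranged from -0.34 to 0.18 for Id1, -0.040 to 0.43 for Id3, -0.53 to -0.31 for Bmpr1a, -0.13 to 0.82 for Bmp2, -0.014 to 0.17 for Bmpr2, -0.11 to 0.24 for Acvrl1, -0.077 to 0.30 for Eng and -0.95 to 0.45 for Grem1. At 10 weeks they ranged from -0.26 to 0.17 for Id3, -0.84 to 0.45 for Bmp2, -0.038 to 0.26 for Bmp4, -0.36 to 0.042 for Bmpr1a, -0.15 to 0.13 for Bmpr2 and -1.92 to 4.30 for Grem1. As 18 minus 10 weeks they ranged from -0.23 to 0.28 for Id1 and -0.014 to 0.50 for Id3. In fibroblasts Id1 ranged from -0.48 to 0.28 at 10 weeks and from -0.083 to 0.19 at 18 weeks. Between cell types the ranges were -0.16 to 0.044 for Bmp2, -0.056 to 0.032 for Bmpr2 and -0.073 to 0.023 for Id3 in VSMCs minus fibroblasts, -0.00463 to 0.15 for Id1 in the endothelial rule minus VSMCs, and -1.13 to 0.019 for Grem1 in the endothelial rule minus fibroblasts. Leaving out a library of 10 weeks leaves 1 in its group, which is then assumed to vary like the other groups. Without the libraries of differing tracer label the 10 week difference could not be fitted. No paired analysis was possible because the labels give no replicate numbers that groups share (those used here follow accession order); batch was a term in the genotype fits. Bmp6 and Grem1 counts limit what VSMC and fibroblast sums can show.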

Other observations

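The 4588 cells that met none of the 3 rules had 80.8 ± 35.9 CPM of Id1 (SD over 16 libraries), 683 ± 408 CPM of Id3 and 39.2 ± 9.60 CPM of Eng. At 10 weeks in VSMCs 0 of 15 immediate early genes had a difference above 0 (median -0.93), and Fosb was at -1.96, Fos at -1.53 and Dusp1 at -1.13, each with an unadjusted p under 0.05 and an adjusted p of 1 in edgeR.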
